A study of Mus musculus with 18 samples.

Results

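The genes described here changed in the same direction with FGF17 at day 3 and at day 14 after myocardial infarction (MI) in mouse hearts. FGF17 was compared with its control vector over 14 libraries of infarcted hearts, with the day as a block. A gene belongs to the set when its effect over both days passed an adjusted p of 0.05 and its change had the same sign at each day. Of 12004 genes tested, 106 met this rule, which is 0.883% of them. With the Fgf17 vector 38 were higher (0.317%) and 68 were lower (0.566%), and Fgf17 itself is 1 of the 38.

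Bulk RNA-seq was made from hearts. Newborn mice had received, under the skin, adeno-associated virus of serotype 9 (AAV9) with the mouse Fgf17 gene or a control vector, and in all 14 libraries the hearts had a permanent tie of the left anterior descending coronary artery at 8 weeks of age. The groups are MI day 3 with the control vector (4 libraries), MI day 3 with FGF17 (4), MI day 14 with the control vector (3) and MI day 14 with FGF17 (3), and 4 sham libraries with the control vector are given for level only, since no sham heart had the Fgf17 vector. The labels give no strain, no sex, and no promoter for the virus, so the heart cells that made FGF17 are not named, and the vector was given long before the infarct. Whether each library is a heart of its own is not stated either, so each p-value measures the spread between libraries, part of which may be technical.

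FGF17 is a secreted ligand of the FGF8 subfamily. It binds FGF receptors on the cell surface and signals through the ERK cascade, which induces its own feedback genes. After an infarct, dying muscle is cleared by infiltrating leukocytes and replaced by scar, interferon-stimulated genes are switched on in macrophages and other cells, and surviving cardiomyocytes lower the genes for burning fatty acids.

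Values are FPKM, that is fragments scaled by transcript length and by the fragments of the library, and the depth of each library is unknown. Correlations of log2 values between libraries of a group were 0.968 to 0.986 across genes. Transcripts of the 13 mitochondrially encoded genes took 18.8% to 28.4% of the summed FPKM in the day 3 control libraries, 27.9% to 30.7% in the day 3 FGF17 libraries, 27.4% to 35.1% in the day 14 control libraries and 20.8% to 32.8% in the day 14 FGF17 libraries. The lowest shares belonged to day 3 control library 4 and day 14 FGF17 library 4, so results were also computed without this pair. In that fit 2 genes were higher (Fgf17 and Lepr) and 2 lower (Rnase6 and Eif2ak2). The labelled tissue was checked by Myh6, the adult alpha myosin heavy chain of cardiomyocytes, which averaged 972 to 1814 FPKM over the infarcted groups.

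Fgf17 lies on the minus strand of chromosome 14, from 70636203 to 70642268 in GRCm38, and was measured first as a check of the vector. Transcripts of the vector and of the heart's own gene cannot be told apart in it. It stood at 47, 75.6, 58.6 and 54.3 FPKM in the day 3 FGF17 libraries and at 49.7, 93.4 and 45.3 in those of day 14. The control libraries had 0.065, 0.0814, 0.38 and 0 FPKM at day 3 and 0.254, 0 and 0 at day 14, and all sham libraries were listed at 0. Every FGF17 library was far above every control library of its day. The effect over both days was 6.63 ± 0.18 on the log2(FPKM + 0.5) scale (± standard error), with an exact two-sided permutation p of 0.00143, the smallest that the 1400 splits within days can give. All log2 changes below are on this scale, which understates changes of genes with low FPKM, and come from limma with Benjamini-Hochberg adjustment over the 12004 genes.

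Every gene past the threshold kept its sign across the days, so the demand for one direction removed no gene. Over all tested genes 60.3% had the same sign at the 2 days. The 37 higher genes other than Fgf17 had effects between 0.30 and 1.35 over both days, and the 68 lower genes between -0.30 and -2.06. The median of the higher genes was 0.40 at day 3 and 0.59 at day 14, and that of the lower genes -0.48 and -0.58. The threshold chose these genes, so their sizes are a description. Libraries of FGF17 and control did not overlap at either day for 24 of the higher and 45 of the lower genes, where 56 (0.467%) and 124 (1.03%) of all tested genes had this pattern.

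**Figure D1:**
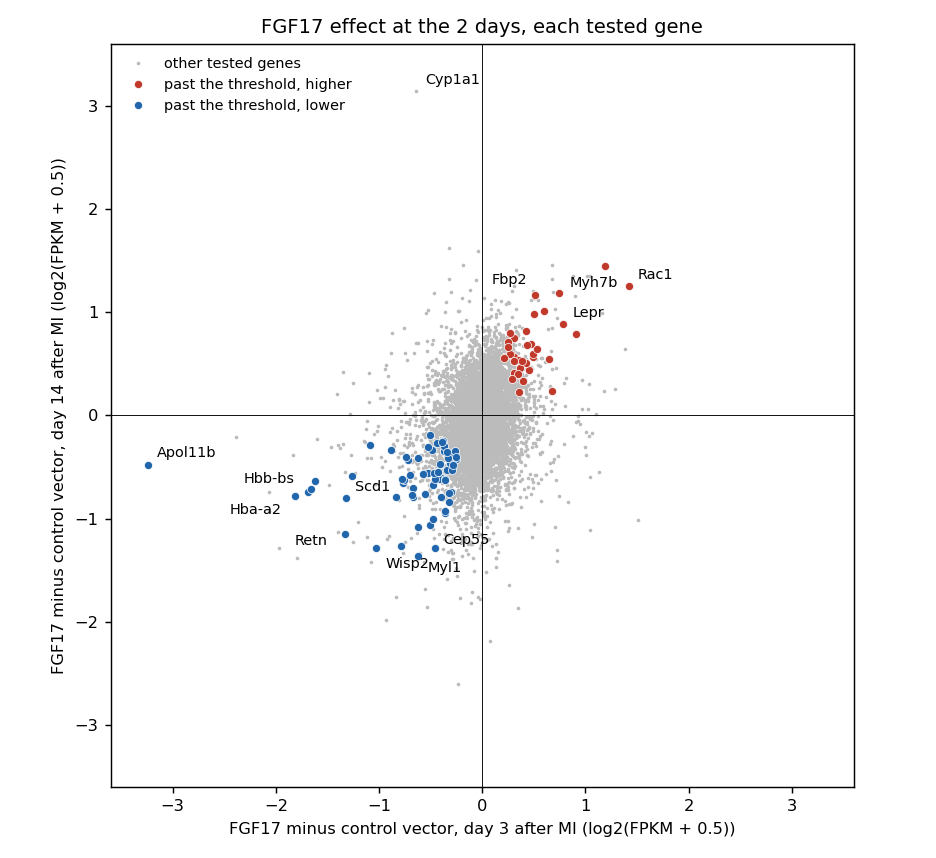
Log2 difference between FGF17 and control vector at day 3 (x axis) and day 14 (y axis) for each tested gene in grey, with the genes past the threshold over both days in red (higher) and blue (lower). Fgf17, at 6.57 and 6.71, lies outside the axes. The coloured points sit at the upper right and lower left, since none of the genes past the threshold had opposite signs.

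The number of genes past the threshold depended on single libraries. Adjusted p lay between 0.04 and 0.05 for 94 of the 106 genes, and 518 further genes lay between 0.05 and 0.1. Themis2, Myl1 and Tesc were the last genes inside (adjusted p = 0.0496, 0.0494 and 0.0488), and Hba-a1, Acadvl and Bmp2 the first outside (0.0503, 0.0511 and 0.0527). Leaving out 1 library at a time gave, in place of 106 genes, 24, 62, 7 and 7 without day 3 FGF17 libraries 1 to 4. It gave 213, 8, 32 and 76 without day 3 control libraries 1 to 4. At day 14 it gave 5, 6 and 8 without FGF17 libraries 1, 3 and 4, and 5, 8 and 166 without control libraries 1, 2 and 4. With median-of-ratios scaling there were 42 genes higher and 36 lower, and leaving out the mitochondrially encoded genes before rescaling gave 125 and 66, against 38 and 68. Rescaling each library to the same total left 3 higher and 3 lower, which were Fgf17, Lepr and Vegfa and then Rnase6, Aldh1a3 and Eif2ak2. None of the 106 genes changed sign in any of these fits. The genes were chosen by their effect in these libraries, which the fits largely reuse, so the kept signs are no separate support. Fgf17, Lepr, Rnase6, Aldh1a3 and Eif2ak2 passed in all 14 fits that left out 1 library, and each of the other genes passed in at most 9 of them.

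**Figure D2:**
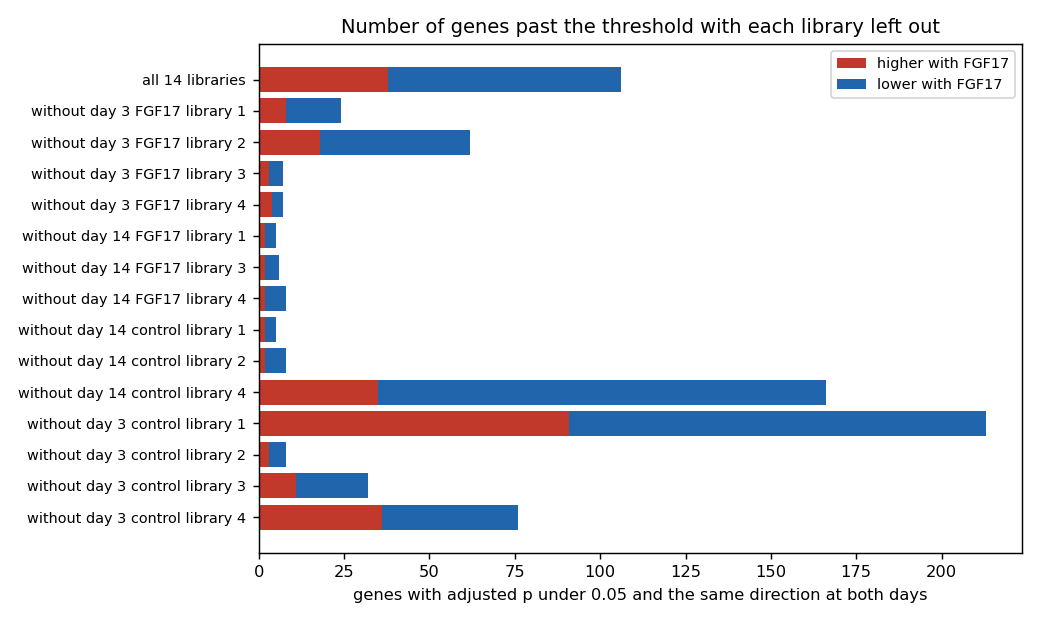
Number of genes past the adjusted p of 0.05 with the same direction at both days (x axis), higher in red and lower in blue, with all 14 libraries and with each library left out in turn. The total was 106 with all libraries and between 5 and 213 with 1 left out.

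Lepr, the receptor for leptin (ENSMUSG00000057722.17, chromosome 4, 101717404 to 101815352, plus strand), was the higher gene other than Fgf17 that passed in all 14 of those fits. It stood at 1.19, 1.04, 1.52 and 1.15 FPKM in the day 3 control libraries and 2.2, 2.11, 2.84 and 2.77 in the day 3 FGF17 libraries. At day 14 the values were 0.791, 0.915 and 0.647 with the control vector and 1.89, 2.49 and 1.34 with FGF17. The groups did not overlap at either day, and sham had 0.966 ± 0.238 FPKM (SD, n = 4). The log2 change was 0.83 ± 0.11 over both days (adjusted p = 0.00977), with 0.79 at day 3 and 0.88 at day 14, and 0.76 to 0.89 with 1 library left out.

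Rnase6, a secreted antimicrobial ribonuclease of myeloid cells (ENSMUSG00000021880.7, chromosome 14, 51123908 to 51132187, plus strand), fell. Its levels were 1.9, 2.0, 2.22 and 2.24 FPKM in day 3 control libraries and 0.729, 1.04, 1.06 and 0.989 with FGF17. At day 14 they were 1.46, 1.26 and 0.923 with the control vector against 0.301, 0.556 and 0.606 with FGF17. No FGF17 library reached a control library of its day, and the sham mean was 0.225 ± 0.099 FPKM (SD, n = 4). The log2 change was -0.82 ± 0.10 (adjusted p = 0.00547), with -0.84 at day 3 and -0.80 at day 14.

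Aldh1a3 encodes an enzyme that makes retinoic acid (ENSMUSG00000015134.15, chromosome 7, 66390890 to 66427517, minus strand). It was at 3.53, 4.0, 3.61 and 4.09 FPKM in day 3 control libraries and 2.51, 1.8, 2.09 and 2.47 with FGF17, and at 2.28, 2.09 and 1.49 with the control vector against 1.24, 0.875 and 0.88 with FGF17 at day 14. The groups again did not overlap. It fell by a log2 change of -0.69 ± 0.10 (adjusted p = 0.00977), with -0.67 at day 3 and -0.71 at day 14, and the call was lost without the pair of libraries with low mitochondrial share (adjusted p = 0.0826). Eif2ak2, the double-stranded RNA sensor kinase PKR (ENSMUSG00000024079.4, chromosome 17, 78852564 to 78882573, minus strand), had 9.9, 11.3, 12.4 and 10.4 FPKM in day 3 control libraries and 7.66, 6.74, 7.58 and 7.22 with FGF17. The day 14 values were 10.02, 8.93 and 8.02 with the control vector against 6.0, 6.93 and 5.0 with FGF17. All FGF17 libraries lay below the control libraries of their day, and the change was -0.56 ± 0.079 log2 (adjusted p = 0.00977), with -0.56 at day 3 and -0.56 at day 14.

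**Figure D3:**
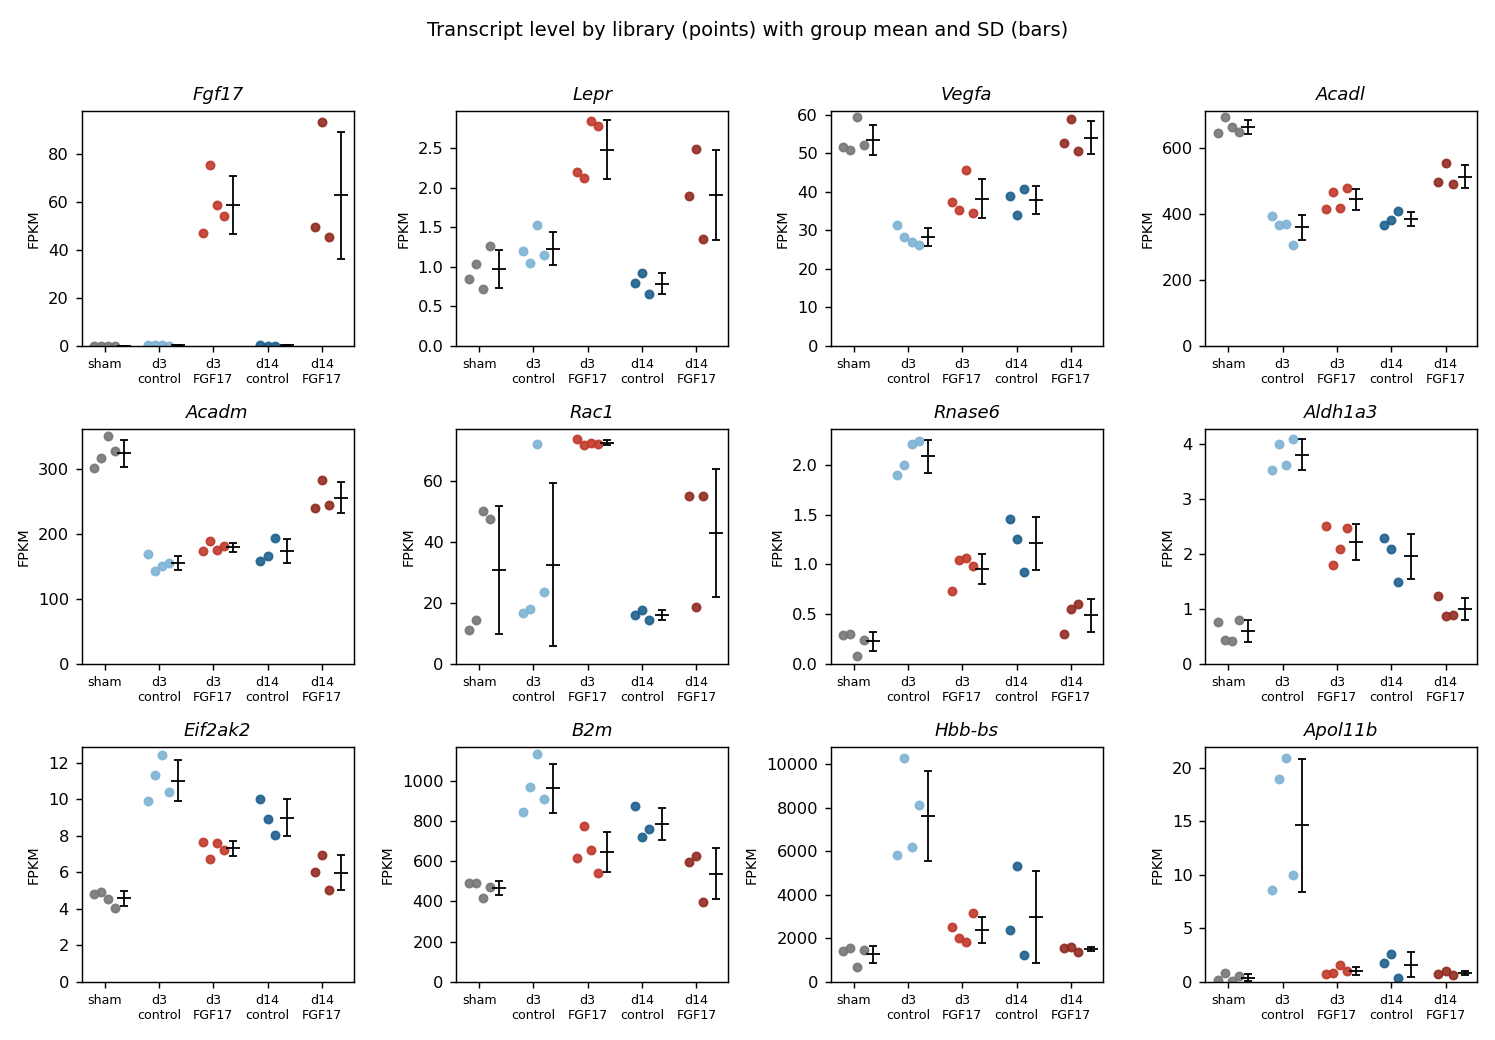
FPKM of 12 genes past the threshold in each library (points) by group, with the group mean and SD (black bars), n = 4 for sham and both day 3 groups and n = 3 for both day 14 groups. Lepr, Vegfa, Acadl and Acadm are higher in every FGF17 library than in any control library of the same day, and Rnase6, Aldh1a3, Eif2ak2 and B2m are lower. In Rac1 the groups overlap at day 3, and in Hbb-bs and Apol11b at day 14.

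Genes of fatty acid metabolism were among those that rose. Acadl and Acadm, the long-chain and medium-chain acyl-CoA dehydrogenases that open the beta-oxidation cycle, rose by 0.35 ± 0.069 and 0.37 ± 0.078 log2 (adjusted p = 0.0428 and 0.0465). Acadl stood at 395, 365, 369.9 and 306 FPKM in day 3 control libraries and 416, 466, 418 and 477 with FGF17. Its day 14 values were 366, 383 and 407 with the control vector against 496, 554 and 489.6 with FGF17, with no overlap at either day. Acadm went from a mean of 154 ± 10.7 to 179 ± 7.0 FPKM at day 3 (SD, n = 4 and 4). The day 14 means went from 173 ± 18.3 to 255 ± 23.3 (n = 3 and 3). No infarcted library reached the sham means of 663 and 324 FPKM.

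Of the 30 genes on the list of fatty acid uptake and oxidation, 2 rose and 0 fell over both days (Acadl and Acadm), beside 0.883% of all genes called. By sign 29 of the 30 were positive, where 41.9% of all tested genes were, and 23 were higher at an unadjusted p under 0.05, where 796 of all tested genes (6.63%) were. The list median was 0.34, with 0.17 at day 3 and 0.54 at day 14, and the median of all tested genes was -0.033. At day 14 taken alone 20 of the 30 rose and 1 fell (7.2% of all genes called), and at day 3 alone 0 passed. Acadvl, the very-long-chain dehydrogenase, lay just outside the threshold at 0.49 log2. Cpt1b, the muscle enzyme that loads fatty acids for mitochondria, had 0.38 ± 0.12 (adjusted p = 0.101). The effect fitted over both days was positive for all 24 genes of the tricarboxylic acid cycle and all 37 nuclear genes of respiratory complex I. It was also positive for all 35 of complexes III, IV and ATP synthase, and the medians were 0.21, 0.16 and 0.14. Positive at day 3 and also at day 14 were 21, 32 and 32 of them, beside 23.5% of all tested genes. Of these 3 lists 0 genes passed the threshold, and 18, 16 and 13 were higher at an unadjusted p under 0.05, beside 6.63% of all tested genes. Without the pair of libraries with low mitochondrial share, the fatty acid list kept a median of 0.30 and had 0 genes past the threshold.

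Other metabolic genes rose too. Perm1, a muscle protein that works with the PGC-1 and ERR regulators of mitochondrial genes, stood at 36.9, 26.6, 27 and 30.8 FPKM in day 3 control libraries and 34.2, 38.5, 39.1 and 37.6 with FGF17, and at 34.6, 36.9 and 44.9 with the control vector against 54.1, 70.2 and 72.6 with FGF17 at day 14. The day 3 groups overlapped and the day 14 groups did not, and the change was 0.50 ± 0.11 log2 (adjusted p = 0.0466). It was 1 of 19 tested genes of mitochondrial biogenesis and dynamics to pass, and Ppargc1a, the coactivator PGC-1alpha, had 0.85 ± 0.22 (adjusted p = 0.0678). Fbp2, the muscle fructose bisphosphatase, rose by 0.79 ± 0.17 log2, with 0.51 at day 3 and 1.167 at day 14. Plin4, a coat protein of lipid droplets, went from 13.2 ± 2.95 to 20.5 ± 0.675 FPKM at day 3 (SD, n = 4 and 4) and from 19.3 ± 4.89 to 28.1 ± 4.83 at day 14 (n = 3 and 3), a rise of 0.60 ± 0.13 log2. Adhfe1, a mitochondrial enzyme that oxidises hydroxy acids such as gamma-hydroxybutyrate, rose by 0.54 ± 0.10, and Ephx2, the soluble epoxide hydrolase, by 0.45 ± 0.10. The glutathione transferase gene Gsta3 rose by 0.77 ± 0.16, the cytochrome P450 gene Cyp2u1 by 0.42 ± 0.082 and the dehydrogenase-like gene Hsdl2 by 0.36 ± 0.078 log2.

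Vegfa, the main growth factor for blood vessels, passed in 7 of 14 fits with 1 library left out. It had 31.3, 28.3, 26.9 and 26.1 FPKM in day 3 control libraries and 37.3, 35.1, 45.6 and 34.5 with FGF17. With 38.9, 33.8 and 40.6 with the control vector against 52.7, 58.8 and 50.5 with FGF17 at day 14, the groups did not overlap at either day. The rise was 0.46 ± 0.076 log2 (adjusted p = 0.0293), with 0.43 at day 3 and 0.51 at day 14, and sham averaged 53.5 ± 3.89 FPKM (SD, n = 4). On the list of 27 tested genes of angiogenesis and apelin signalling 1 rose (Vegfa) and 1 fell, beside 0.317% and 0.566% of all tested genes. By sign 18 of the 27 were negative, beside 6976 of 12004 tested genes. At an unadjusted p under 0.05, 4 were higher and 10 lower, beside 6.63% and 12.8% of all tested genes. At day 14 alone 1 was called higher and 5 lower, beside 325 and 539 of all tested genes, and at day 3 alone 0. The gene that fell was Aplnr, the apelin receptor of endothelial cells. Aplnr had 17.1, 18, 19.7 and 18.7 FPKM in day 3 control libraries and 13.5, 17.8, 14.7 and 11.52 with FGF17, with 23.9, 24 and 18.3 with the control vector against 12.8, 10.2 and 10.51 with FGF17 at day 14. It fell by a log2 change of -0.61 ± 0.12 (adjusted p = 0.0428), and its day 3 groups overlapped. Of 16 endothelial markers 0 passed, with a median of -0.083, and Pecam1 had -0.057 ± 0.074 log2.

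Single genes of muscle, of transport across membranes and of other roles rose, while 0 of 21 tested sarcomere genes and 0 of 23 of calcium handling and ion channels passed. By sign 18 of the 21 and 22 of the 23 were positive, where 41.9% of all tested genes were. At an unadjusted p under 0.05, 9 and 7 were higher, beside 6.63% of all tested genes. At day 14 alone 3 and 5 were called higher, beside 325 of all 12004 tested genes, and at day 3 alone 0 and 0. Myh7b, a slow-type myosin heavy chain, went from 2.28, 1.24, 1.35 and 3.02 FPKM to 3.5, 3.32, 2.95 and 4.12 at day 3 and from 3.02, 3.52 and 5.72 to 8.01, 9.37 and 11.9 at day 14, a rise of 0.93 ± 0.18 log2. Its groups overlapped at day 3 only. Asb2, the muscle subunit of an E3 ubiquitin ligase, rose by 0.54 ± 0.11 log2 with no overlap at either day, from a mean of 31.8 to 42.5 FPKM at day 3 and from 57 to 91.2 at day 14. Coro6, an actin-binding coronin, rose by 0.37 ± 0.077, Tesc, the calcium-binding protein tescalcin, by 0.45 ± 0.10, and Map1lc3a, a coat protein of autophagosomes, by 0.37 ± 0.081 log2. The carrier genes Slc38a3 (a glutamine transporter), Slc26a10 and Abca6 rose by 0.59 ± 0.13, 0.71 ± 0.14 and 0.45 ± 0.089, and Ank, which carries pyrophosphate out of cells, by 0.30 ± 0.059. Sbk1, a protein kinase, rose by 0.52 ± 0.10. Scara5, a scavenger receptor for ferritin that marks a class of fibroblasts, rose by 0.56 ± 0.12, and was the only 1 of 16 fibroblast markers to pass. Of these 16 markers 10 were negative, beside 6976 of 12004 tested genes, and their median was -0.077. At an unadjusted p under 0.05, 3 were higher and 5 lower, beside 6.63% and 12.8% of all tested genes. At day 14 alone 1 was called higher and 6 lower, beside 325 and 539 of all tested genes, and at day 3 alone 0. Cry1, a repressor of the circadian clock, rose by 0.42 ± 0.088 and was 1 of 17 tested clock genes to pass, and the hour at which hearts were taken is not given. Other higher genes were Lvrn, Tcf23, Nt5dc3, Bnip1, Glt28d2, Bzw2, Dusp18, Klhl7, Tmem63b, Csdc2 and Pcp4l1.

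Rac1, a small GTPase of the cell skeleton, had the largest rise of the 37 higher genes other than Fgf17, and its values fell into separate levels in several groups. The day 3 control libraries had 16.7, 17.9, 72.2 and 23.4 FPKM and the day 3 FGF17 libraries 73.7, 71.9, 72.5 and 72. At day 14 the values were 15.9, 17.5 and 14.2 with the control vector and 55.2, 18.6 and 54.9 with FGF17. The sham libraries, none of which had the Fgf17 vector, had 11, 14.4, 50.3 and 47.6. Single libraries of both vectors and of sham thus lay at either level. The change was 1.35 ± 0.30 log2 (adjusted p = 0.0473), called in 1 of 14 fits with 1 library left out.

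Interferon-stimulated genes that passed the threshold were all lower. On the list of 26 tested genes of this programme 6 fell and 0 rose, 22 of them had a negative value with an unadjusted p under 0.05, and all 26 were negative. Of all 12004 tested genes 1540 (12.8%) were lower at an unadjusted p under 0.05 and 6976 were negative. The list median was -0.43, with -0.54 at day 3 and -0.27 at day 14, and lay between -0.51 and -0.36 in the other fits. At day 3 alone 2 of them were called lower and at day 14 alone 0, beside 12 and 539 of all tested genes. Without the pair of libraries with low mitochondrial share the median was -0.41 and 0 passed.

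The RNA sensors of this programme come first. Ddx58, the sensor RIG-I, stood at 7.64, 7.46, 7.74 and 8.38 FPKM in day 3 control libraries and 5.96, 5.5, 4.91 and 5.32 with FGF17, and at 7.17, 5.98 and 5.76 with the control vector against 4.67, 5.12 and 4.87 with FGF17 at day 14. It fell by a log2 change of -0.42 ± 0.068 (adjusted p = 0.0293, called in 9 of 14 fits with 1 library left out), with no overlap at either day. Dhx58, the related sensor LGP2, had -0.54 ± 0.10 (adjusted p = 0.041) and went from 4.25 ± 0.475 to 2.84 ± 0.604 FPKM at day 3 (SD, n = 4 and 4).

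Antiviral effectors form the next group. Oas1a, which makes the messenger that activates RNase L, had 14.5, 15.6, 15.8 and 19.9 FPKM in day 3 control libraries and 10.6, 8.88, 9.48 and 6.21 with FGF17. At day 14 it had 10.1, 8.42 and 7.21 with the control vector against 5.44, 8.15 and 6.48 with FGF17, where the groups overlapped. Its change was -0.65 ± 0.14 log2 (adjusted p = 0.0465), with -0.88 at day 3 and -0.34 at day 14, and its reads may be shared with other Oas genes. Rsad2, viperin, which makes a chain-terminating nucleotide, had 18.5, 30.4, 28.7 and 26.1 FPKM with the control vector against 12.7, 12.4, 12.7 and 9.49 with FGF17 at day 3 and 19.8, 22.9 and 14.7 with the control vector against 16.9, 16.8 and 12.7 with FGF17 at day 14. It too overlapped at day 14, with -1.09 at day 3 and -0.29 at day 14, and fell by a log2 change of -0.74 ± 0.16 (adjusted p = 0.0466). Isg20, an exonuclease that degrades single-stranded RNA, fell by a log2 change of -0.97 ± 0.19 (adjusted p = 0.0428). Phf11b, which carries a PHD finger, went from 15.2 ± 1.96 to 8.72 ± 1.38 FPKM at day 3 (SD, n = 4 and 4) and from 7.04 ± 2.45 to 4.18 ± 0.824 at day 14 (n = 3 and 3). Phf11b has near-identical neighbours, so its reads are uncertain. Oasl2, Rtp4, Ifi27l2a, Epsti1, Samd9l, Dtx3l, Sp140, Gbp9, Trim5 and Trim34a also fell, with log2 changes from -0.33 for Trim34a to -0.65 for Ifi27l2a.

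B2m, the light chain of class I MHC, had the highest FPKM, a level per length, of the lower genes outside the globins. It stood at 843, 968, 1131 and 909 FPKM in day 3 control libraries and 614, 776, 656 and 539 with FGF17, and at 874, 721 and 762 with the control vector against 597, 623 and 395 with FGF17 at day 14. The FGF17 libraries lay below the control libraries at each day, the sham mean was 467 ± 36.1 FPKM (SD, n = 4), and the change was -0.57 ± 0.11 log2 (adjusted p = 0.0428). The largest fall belonged to Apol11b, a mouse gene of the apolipoprotein L family. It had 8.58, 19, 20.9 and 9.98 FPKM in day 3 control libraries and 0.742, 0.833, 1.52 and 0.971 with FGF17. At day 14 it had 1.77, 2.63 and 0.316 with the control vector against 0.768, 0.968 and 0.653 with FGF17, and the groups overlapped. The change was -2.06 ± 0.44 log2 over both days (adjusted p = 0.0465), with -3.24 at day 3 and -0.48 at day 14, and the test of the difference between its days had an adjusted p of 0.0899. Apol10b of the same family fell by a log2 change of -0.71 ± 0.12, and reads of this family may be split between its copies.

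The promoters of these genes were read from RefSeq (GRCm38.p6) because interferon-stimulated genes share a known element, the ISRE. The motif, GAAA followed by any 2 bases and a further GAAA, was searched on both strands in the 250 bases before each start. It was in 280 of 10034 promoters of genes in the table (2.79%) and in 11 of the 72 promoters found for the 106 genes (15.3%), of which 10 belonged to lower genes and 1, Vegfa, to a higher gene. The other lower genes with a match were BC147527, Ctss, Plk2 and Wls. A match describes the letters of the window only. Below are 6 of the matching promoters, chosen as those of interferon-linked genes that fell, 5′ to 3′ on the gene's strand, with the matched bases of the motif in capitals.
Oas1a chr5:120907526-120907775 (minus strand): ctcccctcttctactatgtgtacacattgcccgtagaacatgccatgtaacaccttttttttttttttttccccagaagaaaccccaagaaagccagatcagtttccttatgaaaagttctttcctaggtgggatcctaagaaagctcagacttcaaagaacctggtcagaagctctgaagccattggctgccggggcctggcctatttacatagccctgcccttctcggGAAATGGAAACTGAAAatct
Rsad2 chr12:26456453-26456702 (minus strand): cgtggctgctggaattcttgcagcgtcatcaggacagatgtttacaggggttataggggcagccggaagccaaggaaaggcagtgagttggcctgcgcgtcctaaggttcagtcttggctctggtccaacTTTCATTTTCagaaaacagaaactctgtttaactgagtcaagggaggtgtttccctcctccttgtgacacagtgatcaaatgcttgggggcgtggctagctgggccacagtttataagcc
Phf11b chr14:59341331-59341580 (minus strand): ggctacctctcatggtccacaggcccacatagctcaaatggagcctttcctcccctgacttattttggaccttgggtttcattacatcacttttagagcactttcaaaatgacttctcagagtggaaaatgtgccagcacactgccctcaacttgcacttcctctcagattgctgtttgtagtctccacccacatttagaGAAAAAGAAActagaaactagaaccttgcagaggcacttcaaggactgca
Trim5 chr7:104288107-104288356 (minus strand): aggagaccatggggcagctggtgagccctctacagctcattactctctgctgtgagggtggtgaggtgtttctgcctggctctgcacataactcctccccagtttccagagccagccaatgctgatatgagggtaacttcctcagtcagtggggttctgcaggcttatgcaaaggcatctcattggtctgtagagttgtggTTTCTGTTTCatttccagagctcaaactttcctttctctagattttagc
B2m chr2:122147437-122147686 (plus strand): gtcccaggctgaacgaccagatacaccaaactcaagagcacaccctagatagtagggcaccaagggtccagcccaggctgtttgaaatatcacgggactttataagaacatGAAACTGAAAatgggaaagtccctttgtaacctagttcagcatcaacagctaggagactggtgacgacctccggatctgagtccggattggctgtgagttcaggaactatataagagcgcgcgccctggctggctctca
Apol11b chr15:77643287-77643536 (minus strand): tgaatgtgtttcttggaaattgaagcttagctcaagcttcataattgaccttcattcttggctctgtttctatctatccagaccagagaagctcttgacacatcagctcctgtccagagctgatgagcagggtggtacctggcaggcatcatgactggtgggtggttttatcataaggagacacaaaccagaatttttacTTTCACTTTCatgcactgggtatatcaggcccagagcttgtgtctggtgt
Among these 6 the match lies nearest to the start in Oas1a, where the first of 2 overlapping matches begins 20 bases before it, and lies farther upstream in Rsad2 and B2m, at 120 and 139 bases. A second motif, TNAAGGTCA, the extended site bound by estrogen-related receptors, was in 0.608% of all promoters and in 3 of the 72, Myh7b among the higher genes and Apol11b and Cd84 among the lower.

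Single genes known from macrophages fell, while most markers of these cells did not pass. Ctss, the lysosomal protease cathepsin S of antigen-presenting cells, stood at 362, 431, 411 and 465 FPKM in day 3 control libraries and 307, 344, 274 and 278 with FGF17, and at 213, 152 and 128 with the control vector against 111, 95.5 and 122 with FGF17 at day 14. The groups did not overlap at either day, and the change was -0.51 ± 0.11 log2 (adjusted p = 0.0465). Ctsh, the lysosomal protease cathepsin H, fell by a log2 change of -0.54 ± 0.12. Ms4a7, a membrane protein of macrophages, went from 10.4 ± 1.08 to 7.34 ± 0.492 FPKM at day 3 (SD, n = 4 and 4) and from 7.01 ± 1.84 to 4.21 ± 1.12 at day 14 (n = 3 and 3). It was the only 1 of 21 macrophage markers past the threshold, beside 0.566% of all tested genes called lower. By sign 19 of the 21 were negative, beside 6976 of 12004 tested genes, and the list median was -0.25. At an unadjusted p under 0.05, 10 were lower and 0 higher, beside 12.8% and 6.63% of all tested genes. The summed level of the macrophage markers was 1659 to 1952 FPKM in day 3 control libraries, 1368 to 1606 in day 3 FGF17 libraries, 907 to 1378 in day 14 control libraries and 753 to 809 in day 14 FGF17 libraries. The part of macrophage content in the genes of this group was not tested, and in bulk hearts fewer cells of a type and less RNA per cell cannot be told apart. Lyz2, the macrophage lysozyme, had -0.38 ± 0.10 log2 (adjusted p = 0.0752). Of 8 tested class II MHC genes 8 were negative, beside 6976 of 12004 tested genes, with a median of -0.59 and 0 past the threshold. At an unadjusted p under 0.05, 7 of the 8 were lower, beside 12.8% of all tested genes.

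Ltc4s, the enzyme that makes leukotriene C4, fell by a log2 change of -0.70 ± 0.15, and passed in 0 of the 14 fits with 1 library left out. Ly86, a partner of a toll-like receptor homologue, fell by a log2 change of -0.64 ± 0.14, and the leukocyte signalling genes Cd84, Slamf9, Fyb and Themis2 had -0.37, -0.57, -0.36 and -0.48. Plau, the urokinase that activates plasminogen, had 23.2, 22.5, 20.8 and 26.7 FPKM in day 3 control libraries and 18.6, 18.1, 17 and 16.9 with FGF17, with 6.48, 6.46 and 5.21 with the control vector against 3.38, 3.6 and 4.39 with FGF17 at day 14. No FGF17 library reached a control library of its day, and the change was -0.48 ± 0.081 log2 (adjusted p = 0.0311). Abca1, the exporter of cholesterol, fell by a log2 change of -0.36 ± 0.072.

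Several genes of red cells fell over both days. Hbb-bs, an adult beta globin, stood at 5845, 10307, 6199 and 8127 FPKM in day 3 control libraries and 2495, 1992, 1808 and 3165 with FGF17. The day 14 levels were 2383, 5318 and 1242 with the control vector against 1548, 1580.1 and 1375 with FGF17. The day 3 groups lay far apart, and the day 14 control libraries spread around the FGF17 libraries. The change was -1.28 ± 0.27 log2 (adjusted p = 0.0465), with -1.68 at day 3 and -0.74 at day 14. Hba-a2, an alpha globin, fell by a log2 change of -1.37 ± 0.30, with -1.82 at day 3 and -0.78 at day 14. Globin genes come in near-identical copies, and Hba-a1, the copy of Hba-a2, lay just outside the threshold. Bpgm, which makes the bisphosphoglycerate of red cells, fell by a log2 change of -1.20 ± 0.25, and Fam46c, a poly(A) polymerase of erythroid and plasma cells, by -1.25 ± 0.24 on the same scale. Of 9 tested erythroid markers 3 fell and all 9 were negative, beside 0.566% of all tested genes called lower and 6976 of 12004 negative. Their median was -1.28, with -1.68 at day 3 and -0.68 at day 14. At day 3 alone 2 of the 9 were called lower and at day 14 alone 0, beside 12 and 539 of all tested genes. Their summed level was 15201 to 25863 FPKM in day 3 control libraries against 4908 to 7974 with FGF17, and 3434 to 14367 against 3937 to 4224 at day 14, with 1775 to 4028 in sham. The amount of blood left in the hearts is not given by the labels, and its part in these values was not tested. With the erythroid markers left out of each library's total, 46 genes were higher and 240 lower.

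Genes of fat cells and lipid synthesis were among those that fell. Retn, the adipocyte hormone resistin, had 2.85, 1.65, 0.63 and 2.63 FPKM in day 3 control libraries and 0.186, 0.488, 0.509 and 0.424 with FGF17, and 4.63, 1.97 and 4.56 with the control vector against 1.39, 1.29 and 1.21 with FGF17 at day 14. The FGF17 libraries lay below the control libraries at both days, and Retn fell by a log2 change of -1.26 ± 0.23 (adjusted p = 0.041). Scd1, the desaturase that makes oleic acid, had 32.4, 14.5, 12.9 and 44.8 FPKM in day 3 control libraries and 8.17, 7.79, 9.97 and 9.86 with FGF17, and 26.1, 27.7 and 41.6 with the control vector against 16.7, 17.7 and 18.7 with FGF17 at day 14, again with no overlap, a change of -1.09 ± 0.24 (adjusted p = 0.0465). Insig1, which holds back sterol synthesis, fell by a log2 change of -0.32 ± 0.067. Of 12 tested adipocyte markers 1 rose (Plin4) and 1 fell (Retn), beside 0.317% and 0.566% of all tested genes. By sign 9 of the 12 were negative, beside 6976 of 12004 tested genes, and the list median was -0.92. At an unadjusted p under 0.05, 2 were higher and 7 lower, beside 6.63% and 12.8% of all tested genes. Their summed level was 276 to 344 FPKM in day 3 control libraries, 229 to 286 in day 3 FGF17 libraries, 374 to 453 in day 14 control libraries and 291 to 328 in day 14 FGF17 libraries. The part of fat tissue in the hearts was not tested.

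Matrix and secreted genes were few among those past the threshold. Wisp2, the matricellular protein CCN5, had 13.5, 18.7, 23.1 and 25.2 FPKM in day 3 control libraries and 8.99, 11.2, 7.68 and 10.02 with FGF17. At day 14 it had 96.7, 71.2 and 49.4 with the control vector against 28, 15.6 and 52.3 with FGF17, and 1 FGF17 library lay above 1 control library. The change was -1.14 ± 0.23 log2 (adjusted p = 0.0428), with -1.03 at day 3 and -1.28 at day 14. It was 1 of 35 other matrix genes to pass, and 33 of the 35 had negative values. At day 14 alone 16 of the 35 were called lower, beside 539 of all 12004 tested genes, and at day 3 alone 0. Of 19 collagen genes 0 passed, all 19 were negative with a median of -0.40, and 13 were lower at an unadjusted p under 0.05, beside 12.8% of all tested genes lower at that p and 6976 of 12004 negative. At day 14 alone 7 collagen genes were called lower, beside the 539 of all tested genes, and at day 3 alone 0. Col1a1 had -0.44 ± 0.15, Col3a1 -0.40 ± 0.13 and Postn, the periostin of activated fibroblasts, -0.70 ± 0.23 log2 (adjusted p = 0.126, 0.118 and 0.128). Anxa8, an annexin, went from 4.34 ± 1.87 to 2.16 ± 0.314 FPKM at day 3 (SD, n = 4 and 4) and from 9.6 ± 2.38 to 3.64 ± 0.514 at day 14 (n = 3 and 3), with no overlap at either day. Wls, which escorts Wnt ligands to the cell surface, and the transcription factor genes Sox4 and Zfp521 fell by log2 changes of -0.34 ± 0.075, -0.47 ± 0.10 and -0.37 ± 0.081. Npy, the neuropeptide Y of sympathetic nerves, had 1.67, 0.83, 1.05 and 0.904 FPKM in day 3 control libraries and 0.414, 0.333, 0.893 and 0.40 with FGF17, and 0.959, 0.856 and 1.3 with the control vector against 0.229, 0.716 and 0.315 with FGF17 at day 14. It fell by a log2 change of -0.72 ± 0.16 and passed in 0 of the 14 fits with 1 library left out.

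Cell division genes that fell were Cep55, which acts in the last cut between daughter cells, Knstrn of the mitotic spindle and the transcription factor gene E2f2. Their changes were -0.81 ± 0.14, -0.74 ± 0.12 and -0.50 ± 0.091 log2, and Plk2, a kinase of the polo family, had -0.60 ± 0.10. Of the 30 genes on the cell cycle list 0 passed over both days, 29 had negative values and the median was -0.36, with -0.094 at day 3 and -0.67 at day 14, beside 6976 of 12004 tested genes negative. At day 14 alone 16 of the 30 were called lower, beside 539 of all 12004 tested genes, and at day 3 alone 0. Mki67, a marker of cycling cells, had -0.50 ± 0.17 log2 (adjusted p = 0.134).

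Among muscle genes, Myl1, the light chain of fast skeletal myosin, and Mybphl, a myosin-binding protein of atria and conduction tissue, fell. Myl1 had 30.6, 81.1, 44 and 43.7 FPKM in day 3 control libraries and 33.8, 24.7, 35.1 and 28.4 with FGF17, and 87.9, 75 and 55.1 with the control vector against 23.2, 37.8 and 23.6 with FGF17 at day 14, a change of -0.94 ± 0.21 log2 with -0.62 at day 3 and -1.36 at day 14. Its day 3 groups overlapped. Mybphl changed by -0.82 ± 0.16 (adjusted p = 0.0428). Of 11 tested markers of fast skeletal muscle 1 fell (Myl1), beside 0.566% of all tested genes called lower. By sign 10 of the 11 were negative, beside 6976 of 12004 tested genes. Their median was -0.50, with -0.14 at day 3 and -0.88 at day 14. At day 14 alone 6 of the 11 were called lower, beside 539 of all tested genes, and at day 3 alone 0. Of 11 atrial markers 0 passed, with a median of -0.15. How much atrium each heart sample held was not tested. Other lower genes were 1810011H11Rik, BC147527, Hacd4, Mtss1, Rab29, Fam114a1, Cmah, Gnpda1, Sept4, Sept10, Fam105a and Cd276.

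**Figure D4:**
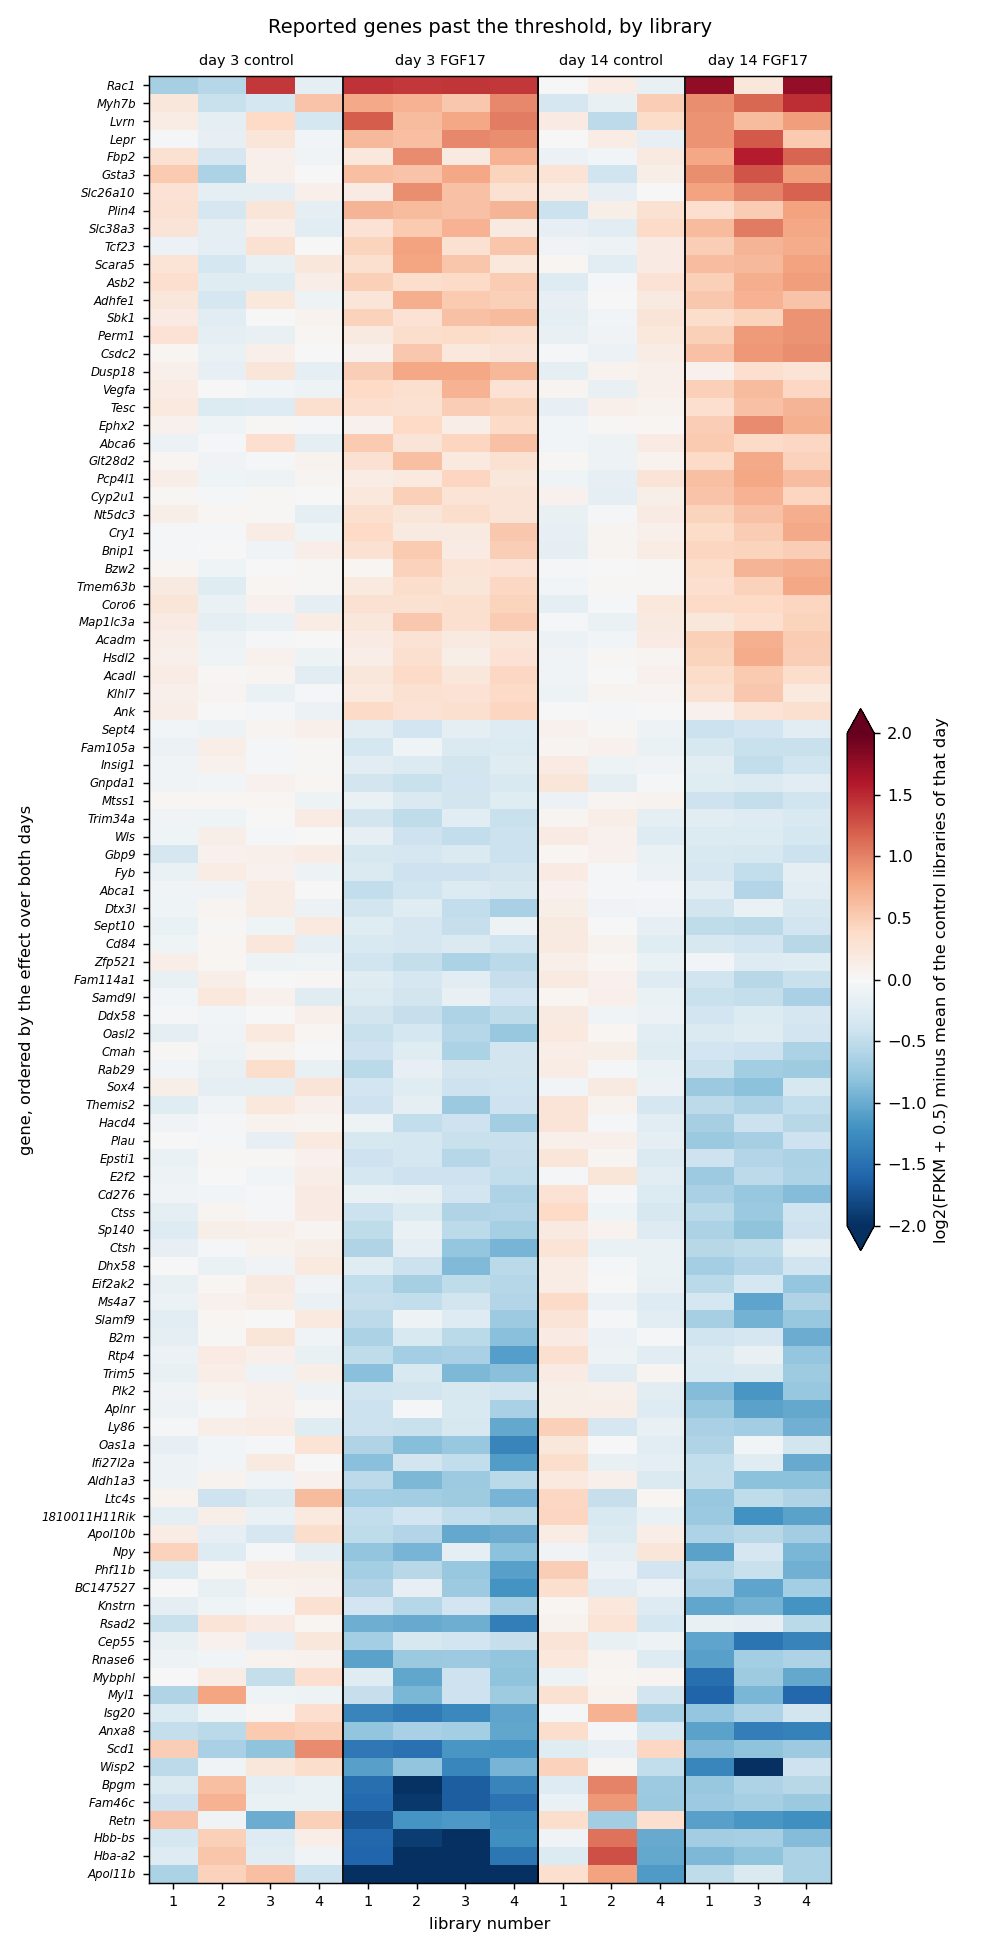
Heat map of the genes past the threshold that are reported here (Fgf17 left out), ordered by the effect over both days, with a column for each of the 14 libraries. Colour is log2(FPKM + 0.5) minus the mean of the control libraries of the same day, from -2 (blue) to 2 (red). FGF17 columns are red for the higher genes at the top and blue for the lower genes below, and the strongest blue is that of Apol11b and the globin genes at day 3.

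No listed gene of the FGF pathway other than Fgf17 passed. Of 18 tested genes of ERK feedback and targets 0 passed, with a median of -0.038 that was positive, up to 0.024, in other fits. At an unadjusted p under 0.05, 2 of them were higher and 2 lower, beside 6.63% and 12.8% of all tested genes. Dusp6, the ERK phosphatase, had -0.18 ± 0.10 log2, Spry4, an inhibitor of receptor signalling, 0.056 ± 0.10, and Etv5, a transcription factor downstream of FGF receptors, -0.25 ± 0.093 (adjusted p = 0.311, 0.797 and 0.17). On the list of ligands and receptors of the family and their partner proteins, Fgf17 left out, 0 of 18 tested genes passed. Of these 18, 3 were lower and 0 higher at an unadjusted p under 0.05, beside 12.8% and 6.63% of all tested genes. Cardiac stress genes had no call among 21 tested. At an unadjusted p under 0.05, 10 were lower and 2 higher, beside 12.8% and 6.63% of all tested genes. At day 14 alone 5 were called lower, beside 539 of all 12004 tested genes. Nppa, the atrial natriuretic peptide, had -0.42 ± 0.14 (adjusted p = 0.135). Nppb had -0.066 ± 0.16 and changed sign in 3 other fits. Myh6 had 0.35 ± 0.12, Myh7 0.33 ± 0.25 and Atp2a2, the calcium pump, 0.23 ± 0.089 (adjusted p = 0.136, 0.486 and 0.185). Il1b, an inflammatory cytokine, had 0.060 ± 0.30 and changed sign in 3 fits with 1 library left out. These missed thresholds do not show that levels were alike.

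**Figure D5:**
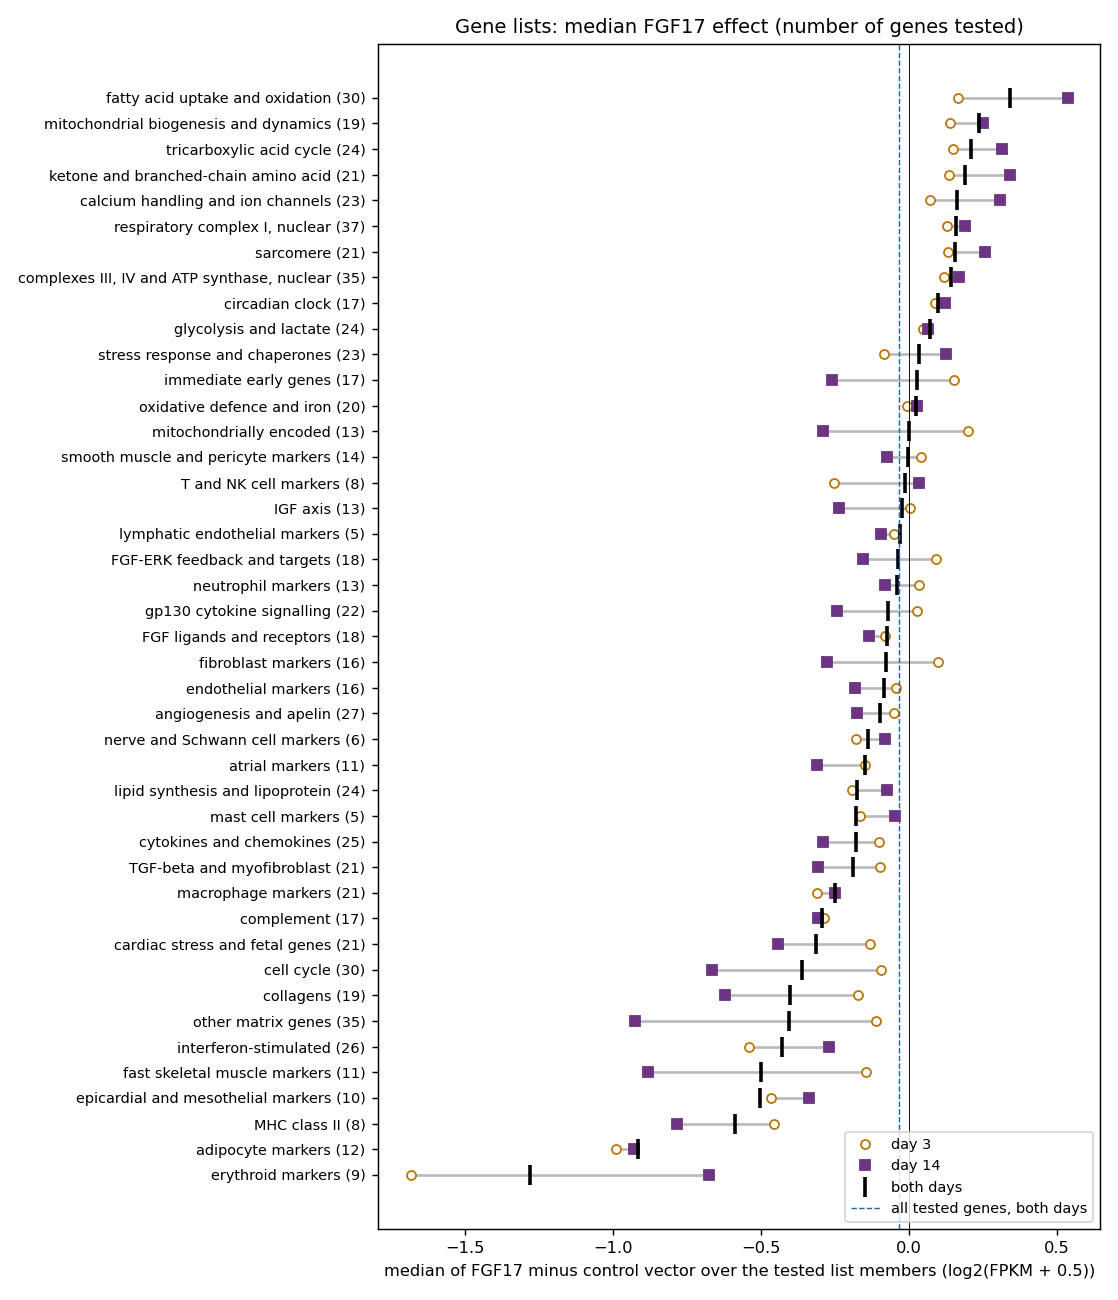
Median log2 difference between FGF17 and control vector over the tested members of each gene list with at least 5 of them, at day 3 (open circles), day 14 (squares) and over both days (bars), beside the median of all tested genes over both days (dashed line, -0.033). Erythroid, adipocyte and class II MHC lists lie lowest, and the fatty acid list lies highest at 0.34.

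How far the days differed was tested directly. Over all genes 10 had an effect that differed between the days (0.0833%), and 0 of the 106 were among them. The set asks for the same sign at both days, and its fit counts a difference between days as spread. Genes that differ are thus selected against, and the 0 does not show that the 106 had equal effects at both days. At an unadjusted p under 0.05, 22 of the 106 differed, beside 1547 of all tested genes (12.9%). The lowest adjusted p of the 106 was 0.0899, that of Apol11b. Day 3 alone gave 16 genes past the threshold (0.133%) and day 14 alone 864 (7.2%). Of the 105 genes other than Fgf17, 69 had the larger change at day 14, 30 of them higher and 39 lower. The groups were free of overlap for 81 of the 106 genes at day 3 and for 94 at day 14, where 3 libraries face 3 in place of 4 facing 4. The shares of all tested genes free of overlap at a single day are not given here. The threshold chose the 106 genes by these same values, so both counts are a description only.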

How the data were processed

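The authors deposited FPKM values for 12988 protein-coding genes in 18 libraries. Per the labels, RNA was extracted with Trizol and sequenced on Illumina libraries. The submitters' processing notes name FastQC 0.11.7, cutadapt 1.17, HISAT2 2.1.0, StringTie 1.3.3 and GRCm38. Columns were assigned to groups by name (0 columns without a group), and library numbers are those of the column names, which do not identify samples. FPKM keeps no library depth, so no counting interval is given.

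A gene was tested when 3 or more of the 14 MI libraries had 1 FPKM or more (12004 genes). limma 3.58.1 in R 4.3.3 fitted day and FGF17 to log2(FPKM + 0.5), with eBayes and a mean-variance trend, Benjamini-Hochberg adjustment over all tested genes, two-sided tests and a threshold of 0.05. Effects of each day and their difference came from 4 group means in 1 fit. Single genes took the 15 higher and 15 lower members (at least 2 FPKM in a group) by the smaller of their changes at the 2 days, a constant set, and the 2 genes with the smallest p of each of 46 lists; members outside these were named for their roles after their values were seen. The members and lists were chosen with earlier results of these data known. Lists hold 892 entries, of which 839 matched the table, 4 by an older name. Alternatives were other pseudocounts, filters, scalings, fits and each library left out. Leaving out the pair with low mitochondrial share, and leaving erythroid markers out of the total, were chosen after seeing the data. The fit was tested on simulated data. Promoters were those of RefSeq on GRCm38.p6, found for 72 of the 106 genes. Of the 106 genes, 4 are not reported here.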

Additional observations from a re-analysis of the deposited data

Results flagged for a closer look

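In 5 of the 96 gene and group pairs of 4 libraries, the highest or lowest library stood apart from the others past Dixon's critical value, where chance gives about 1 in 20. In the day 3 control group Rac1 reached 72.2 FPKM in library 3, where the next library had 23.4. Bpgm reached 77.3 FPKM in library 2 of that group (next 45.8), Col1a1 409 FPKM in library 4 (next 261.0) and Mki67 13.6 FPKM in library 2 (next 11.4). In the day 3 FGF17 group Ltc4s had 3.93 FPKM in library 4, below the next lowest at 4.64.

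The effect of FGF17 differed between the days for 10 genes by limma's test of the difference (each adjusted p = 0.0465), none of them among the 106. They were chosen by this test after their values were seen. Cyp1a1, a cytochrome P450 of the aryl hydrocarbon receptor pathway, had an effect that was 3.79 log2 higher at day 14 than at day 3, and Mrps18b, a mitochondrial ribosomal protein, 0.64 higher. The day 14 effect minus the day 3 effect was -2.21 for 1500015O10Rik, -1.76 for the tendon membrane protein Tnmd, -1.37 for Nrep, -1.36 for the mitochondrial NAD carrier Slc25a51 and -1.26 for the receptor Ror1. For Cdca3 and Ckap2, genes of cell division, it was -1.22 and -0.94, and for the ATP-gated channel P2rx7 it was -1.19.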

How the results depend on the processing

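The number of genes past the threshold moved widely, and values here name counts only, not which genes. No gene among the 106 changed sign in any fit, which the choice of these genes made likely beforehand. In the fits that left out 1 library, higher genes numbered 2 to 91 (38 with all), lower genes 3 to 131 (68), genes at day 3 alone 2 to 26 (16), at day 14 alone 24 to 1295 (864), and genes that differed between the days 0 to 59 (10). The fits with all 18 libraries and with the days weighted equally used group means. Unlike the main fit, they did not count a difference of the FGF17 effect between days as spread. They gave 311 higher and 611 lower genes with all 18 libraries, and 221 and 419 with the days weighted equally. Higher and lower genes numbered 122 and 245 with array weights and 15 and 24 without a mean-variance trend. They numbered 3 and 3 after rescaling to the same total, and 2 and 2 without the pair of libraries with low mitochondrial share. A filter at 5 FPKM gave 59 higher genes, leaving out mitochondrially encoded genes gave 125, median-of-ratios scaling gave 36 lower genes and leaving erythroid markers out of the total gave 240. Calls at day 3 were 28 with all 18 libraries, 33 with array weights, 8 with a pseudocount of 0.1 and 2 without the low-share pair, and calls at day 14 were 1534 with array weights and 529 after rescaling. Calls for the difference between the days were 44 with all 18 libraries, 113 with array weights, 30 without mitochondrially encoded genes, 3 with a pseudocount of 0.1 and 0 with a pseudocount of 1, no filter, a filter at 5 FPKM, rescaling, no erythroid markers or no low-share pair. The cause of these moves was not tested.

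The library number taken as a replicate block within each day gave 1 higher gene, Fgf17, and 0 lower genes. At day 14 FGF17 library 3 and control library 2 had no partner of the same number, so they did not inform the FGF17 effect there. The added blocks also left less data to measure the spread than in the main fit. Same-numbered libraries of the 2 vectors deviated from their group means with correlations of -0.016 to -0.10 at day 3 and of 0.20 and 0.019 at day 14. The labels do not say what the numbers stand for, and whether same-numbered libraries were handled together was not tested. Nppb reversed to 0.0021 with that block, to 0.017 without the low-share pair and to 0.028 without day 3 control library 4. Il1b reversed to -0.19, -0.036 and -0.014 without day 3 FGF17 library 2, day 3 FGF17 library 4 or day 14 FGF17 library 1, in a range of -0.19 to 0.26 over all such fits (0.060 with all libraries). The median of all genes moved between -0.069 and 0.0086 log2 over the fits. Depth is unknown, and genes under the filter were not tested.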
